A study of Mus musculus with 24 samples.

Results

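The genes described here encode the proteins of the cytosolic ribosome, measured in single mouse haematopoietic stem cells (HSCs). Members were found by name, as Rps or Rpl followed by a number, or as Rplp0, Rplp1, Rplp2 or Rpsa. Of 27297 gene entries, 83 had such a name, and 69 of these reached the minimum of 50 unique molecular identifiers (UMIs, each standing for 1 captured mRNA molecule) over the recorded wells. The small subunit had 25 members and the large subunit 44. The 14 entries below the minimum included Rps27, Rps28, Rpl5, Rpl7 and Rpl24, and among them Rps27a, Rpl3l and Rpl10l had no UMI.

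The cells were single HSCs (LSK, CD150+, CD48-) of the mouse strain -60/DR5-TA-RA-CFP, which carries a cyan fluorescent protein (CFP) reporter, and their CFP status is given as mixed. All cells came from this strain, and the labels give no age or treatment. They were index sorted, so the cytometer's record of each cell is known, on 4 plates numbered 2 to 5. The table of UMIs pools 8 single-cell samples, and no file links a well to its sample or mouse, so plates were the replicates. They may hold cells of the same mice, and an SD below covers only the spread between plates of 1 collection of cells. A p-value reaches no further than these cells, and the estimate of spread behind it was largely shared over genes.

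Each ribosome joins a small subunit, which reads the mRNA, to a large subunit, which forms the peptide bonds. A ribosome holds a single copy of most of its proteins. In mammals most of their mRNAs begin with a cytosine inside a run of pyrimidines, the 5′ TOP motif, through which their translation is controlled together by the mTOR pathway. HSCs are known for a low rate of protein synthesis, and inherited loss of 1 copy of a ribosomal protein gene causes Diamond-Blackfan anaemia, a failure of red cell production.

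The start sites of a few members are shown because a run of pyrimidines over the start is what members are known to share. RefSeq promoters (GRCm38.p6) matched 51 of the 69 members. The 30-base windows below have the transcript's first base at position 16, and capitals mark the longest unbroken run of C and T. The first 5 have a run of 8 or more that takes in the first base. The last 3 do not. Of the first 5, the first base is C in Rps18 and Rpl15 and T in Rps9, Rps24 and Rpl34. For Rps24 and Rpl34 the start site with the run is shown, and the other start site of each has no run over its first base. Their positions are chr7:3704026-3704055 (plus strand) for Rps9, chr17:33955651-33955680 (minus) for Rps18, chr14:24490663-24490692 (plus) for the first of the start sites of Rps24, chr14:18270972-18271001 (minus) for Rpl15 and chr3:130730323-130730352 (minus) for the second of Rpl34. They are chr7:99483695-99483724 (minus) for Rps3, chr11:68901551-68901580 (plus) for Rpl26 and chr9:66946071-66946100 (plus) for the first of Rps27l.
Rps9: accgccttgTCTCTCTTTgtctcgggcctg
Rps18: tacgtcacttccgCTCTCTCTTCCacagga
Rps24: cccgcgctggggTCCTTCCTTgcgcgttga
Rpl15: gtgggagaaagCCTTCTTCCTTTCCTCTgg
Rpl34: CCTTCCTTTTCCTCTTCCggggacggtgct
Rps3: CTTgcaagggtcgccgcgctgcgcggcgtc
Rpl26: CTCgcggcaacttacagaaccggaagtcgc
Rps27l: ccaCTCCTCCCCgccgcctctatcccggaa

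Of the members' 62 promoter entries, 14 (22.6%) had a run of 8 or more pyrimidines over the first base, against 3.82% of the 32789 entries of all other genes. The letters CCGGAAG, which the ETS family of factors can bind, stood on either strand of the 300 bases around the start in 37.1% of the members' entries and in 8.80% of the others. By gene, 31.4% of members and 18.8% of all others had an entry whose first base was C. These are matches of letters and no more.

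The 1430 cells held a median of 1265 UMIs, and the 4 plates 345 to 368 cells each. Ribosomal protein genes took 339764 UMIs, or 16.1% of all. In a single cell the median was 16.9%, with the 5th percentile at 12.2% and the 95th at 22.1%. The sort's own markers were low: Kit had a UMI in 31.5% of cells, Ly6a in 5.52% and Slamf1 in 2.52%, and Cd48, which the sort excludes, had 1 UMI in all. Genes that define T cells (Cd3d, Cd3e, Cd3g) and B cells (Cd79a, Ms4a1) were at 0. Cd79b, known from B cells, had a UMI in 10.98% of cells, Nkg7, listed for T and natural killer cells, in 3.99%, and the myeloid gene Lyz2 in 33.4%.

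Ribosomal protein mRNAs were among the most abundant in these cells, but a few genes held most of them. Members were 28 of the 50 most abundant entries of the table, and Rplp1 was first of all. Levels below are UMIs per 1000000 UMIs (CPM), which count molecules and need no scaling by transcript length. The 8 most abundant members held 41.7% of the members' UMIs and the top 27 held 91.8%. These top 27 were 13 small-subunit and 14 large-subunit genes. Rplp1, part of the stalk of the large subunit that recruits elongation factors, had 14529, 10907, 11647 and 10644 on plates 2 to 5. Its stalk partners were lower, with Rplp0 at 5447 to 7262 and Rplp2 at 2704 to 3275. Of the small subunit, Rps14, whose loss of 1 copy underlies the anaemia of the 5q- syndrome, had 7996 to 10801. Rps3, which lies where mRNA enters the subunit, had 8436 to 10218. Rps9 ranged over plates from 7405 to 10309, Rps18 of the head from 6314 to 8749, and Rps15, also of the head, from 5526 to 7436. At the low end, Rpl10, Rpl19 and Rps13 had 20.7 to 41.3, far below Rps14 although a ribosome holds 1 copy of each. Ribosomal protein genes have many processed pseudogenes, and the sources used here do not say how reads of near-identical copies were assigned. In 8 members the entry also names another gene (Rps3 with Snord15b, Rps2 with Gm10653, Rpl34 with Rpl34-ps1). The level of each gene is therefore uncertain to the extent that reads were split or lost.

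Plate 2 stood apart, in 8 genes of the large subunit. On it, Rpl4, Rpl32, Rpl26, Rpl23, Rpl34, Rpl30, Rpl37a and Rpl36al were each more than 4-fold below every other plate. Rpl4, which lines the exit tunnel for the new protein, had 1156 on plate 2 against 7277, 7156 and 7226 on plates 3, 4 and 5. Rpl32 had 265 against 5526 to 5965, and Rpl26, at the mouth of the tunnel, 533 against 3996 to 4320. Rpl23 had 207 against 3474 to 4166, Rpl34 had 223 against 3529 to 3928, and Rpl30 had 89 against 1486 to 1832. The remaining pair, Rpl37a and Rpl36al, had 217 against 963 to 1079 and 54 against 561 to 697. Among the 50 members with at least 200 UMIs, none stood above every other plate by this fold, and none stood apart on plates 3, 4 or 5. Of scarcer members, chosen after their values were seen, Rpl9 (2.07 against 42.6 to 69.7) and Rpl36a (6.20 against 45.8 to 74.5) were also low on plate 2, and Rpl11 was low on plate 5 (10.6 against 45.5 to 58.6). Rps2 (2907 against 4574 to 5072) was lower on plate 2 by less than 4-fold.

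Among all entries with at least 200 UMIs, 66 of 2310 (2.86%) were this low on plate 2, against 8 of 50 members (16%). The others included Eef1a1, Ifitm1, Ifitm3, Ly6e and Hsp90aa1. The 8 genes held 0.274% of UMIs on plate 2 and 2.75% to 2.85% elsewhere. With them, the ratio of small- to large-subunit UMIs was 1.36 on plate 2 and 0.990, 0.966 and 0.979 on plates 3, 4 and 5. Without them it was 1.41, 1.51, 1.46 and 1.49. The total share differed little, at 15.9%, 16.1%, 16.6% and 15.8%. Comparisons below were made within plates. Leaving out plate 2, 34 members fell with total UMIs (the same 34 as with it), 21 with CFP (19 of them among the 21 with it) and 12 rose with Alexa Fluor 700.

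**Figure D1:**
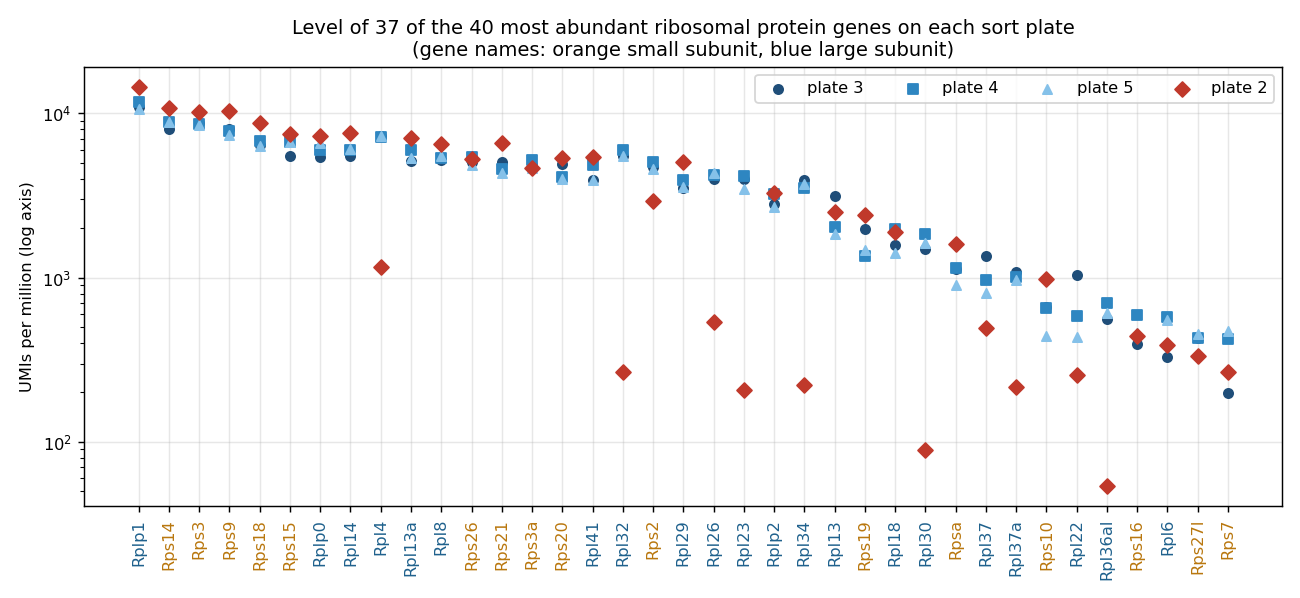
UMIs per 1000000 (log axis) of 37 of the 40 most abundant ribosomal protein genes, 1 point per sort plate, with small-subunit names in orange and large-subunit names in blue. Plate 2 (red diamonds) lies near the other plates for most genes and far below them for the 8 large-subunit genes from Rpl4 (1156) to Rpl36al (54).

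Cells with more UMIs gave a smaller share of them to ribosomal protein genes. The 20% of a plate's cells richest in UMIs were compared with the 20% poorest. Members took 19.0%, 18.8%, 20.1% and 18.9% of UMIs in the low cells of plates 2 to 5, and 13.6%, 14.2%, 14.4% and 13.5% in the high cells. The groups did not overlap, and the difference was -5.25 ± 0.46 percentage points (SD, n = 4 plates). Both subunits fell: the small-subunit share differed by -2.81 ± 0.37 points and the large-subunit share by -2.44 ± 0.29. The ratio of small- to large-subunit UMIs moved by -0.03 ± 0.03, lower in the high cells of 3 of 4 plates. Without the 8 genes low on plate 2 it was lower in the high cells of all 4 plates, by -0.07 ± 0.05: it went from 1.39, 1.55, 1.53 and 1.502 to 1.36, 1.47, 1.38 and 1.47. Member UMIs per cell were 2.63 ± 0.15 times higher in the high cells and all other UMIs 3.86 ± 0.24 times higher. The share fell at each step over 5 bins of cells, from 19.2% through 18.0%, 17.3% and 16.2% to 13.9% as means over plates. After each cell of at least 1000 UMIs was thinned to 1000, the difference between the ends of those cells was -4.00 points.

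Gene by gene, 34 of the 67 members tested fell and none rose, by edgeR's quasi-likelihood test with Benjamini-Hochberg adjustment over all entries. Over all 5528 entries tested, 2.82% fell and 4.63% rose. The 34 were 14 of 24 small-subunit and 20 of 43 large-subunit genes. The median log2 fold change was -0.43 over tested members, -0.46 for the small and -0.39 for the large subunit, and 0.04 over all entries. Abundant genes are called more easily. Of 30 members with at least 2000 UMIs, 27 (90%) fell, against 24.2% of 66 other entries above the same minimum. Depth was not equal in these sets, with a median of 9908 UMIs over the members and 2747 over the others, so the part of depth in the contrast was not tested.

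Rps9, which sits near the mRNA entry of the small subunit, had 13413, 9513, 10958 and 10017 CPM in the low cells of plates 2 to 5. In the high cells it had 7786, 6571, 6123 and 6043. These do not overlap, and the log2 change was -0.76 ± 0.05 (SE; edgeR adjusted p = 7.77e-37). Rps14 went from 14065, 9550, 11300 and 11429 to 8726, 6721, 6978 and 6874, again without overlap (-0.69 ± 0.04; edgeR adjusted p = 2.86e-34). The stalk gene Rplp1 went from 18352, 13470, 14511 and 14234 to 11762, 9246, 9434 and 8476. The plates of its ends did not overlap either (-0.67 ± 0.04; edgeR adjusted p = 1.61e-37). Its stalk partners fell by less, Rplp0 by 0.38 and Rplp2 by 0.43 on the log2 scale.

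The largest falls were in scarcer genes. Rpl39, a small protein of the exit tunnel wall, had 39.5, 442, 60.2 and 86.1 in the low cells and 35.2, 98.7, 31.3 and 27.7 in the high cells. These rest on 2 to 24 UMIs per plate and end, and the values overlap. Its log2 change was -1.69 ± 0.39 (edgeR adjusted p = 9.16e-04), but without plate 3 it was -1.04 with an adjusted p of 0.42. Rps24, mutated in some cases of Diamond-Blackfan anaemia, had 178, 313, 120 and 120 in the low cells and 99.8, 77.9, 62.6 and 60.0 in the high cells. These did not overlap (-1.30 ± 0.33; edgeR adjusted p = 0.0039), but its adjusted p was 0.18 without plate 3. Rpl36 (-0.81) and Rpl13 (-0.76) fell in every plate. With cells thinned to equal UMIs, Rpl36 gave -0.32 and did not pass (edgeR adjusted p = 0.54).

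Some abundant members did not pass. Rps2, of the small subunit near the mRNA entry, had 3595, 5005, 4717 and 4596 in the low cells and 2454, 4701, 4975 and 4589 in the high cells. Its log2 change was -0.16 ± 0.06 (edgeR adjusted p = 0.13), and its ends overlapped with plate 2 and without it. Rpl18 (-0.12 ± 0.09) and Rpsa (-0.25 ± 0.11), also known as the laminin receptor, did not pass either; all 3 were named after their values were seen. With plate left out of the model, 8 members fell, and among cells with recorded number 4 alone 4 fell.

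Other measures moved with total UMIs too. The summed level of the S phase list went from 2429 to 3772 over the plates of the low cells to 6295 to 7184 in the high cells, and that of the G2/M list from 1699 to 3312 up to 4750 to 7899. Of 36 S phase and 37 G2/M genes tested, 24 and 19 rose and none fell. HSC markers (11 of 11 in the table) summed to 2094 to 6472 in the low and 1926 to 3239 in the high cells. Ifitm1, which was low on plate 2, weighed most in this and the later sums of HSC markers, at 4080 UMIs against 761 for Hlf. Of 10 tested, Ifitm1 (-1.30), Mllt3 (-1.19) and Procr (-1.71) fell and Cd34 rose (1.13). Erythroid markers (6 of 10 in the table, with haemoglobin genes the most abundant) summed to 454 to 1626 and 1454 to 2284. Megakaryocyte markers (5 of 5 in the table) summed to 158 to 331 and 306 to 697, and Pf4 rose (1.502). After removal of the 20% of cells richest in S phase and G2/M transcripts, 28 members fell and none rose. The part of the other markers in the fall was not tested.

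**Figure D2:**
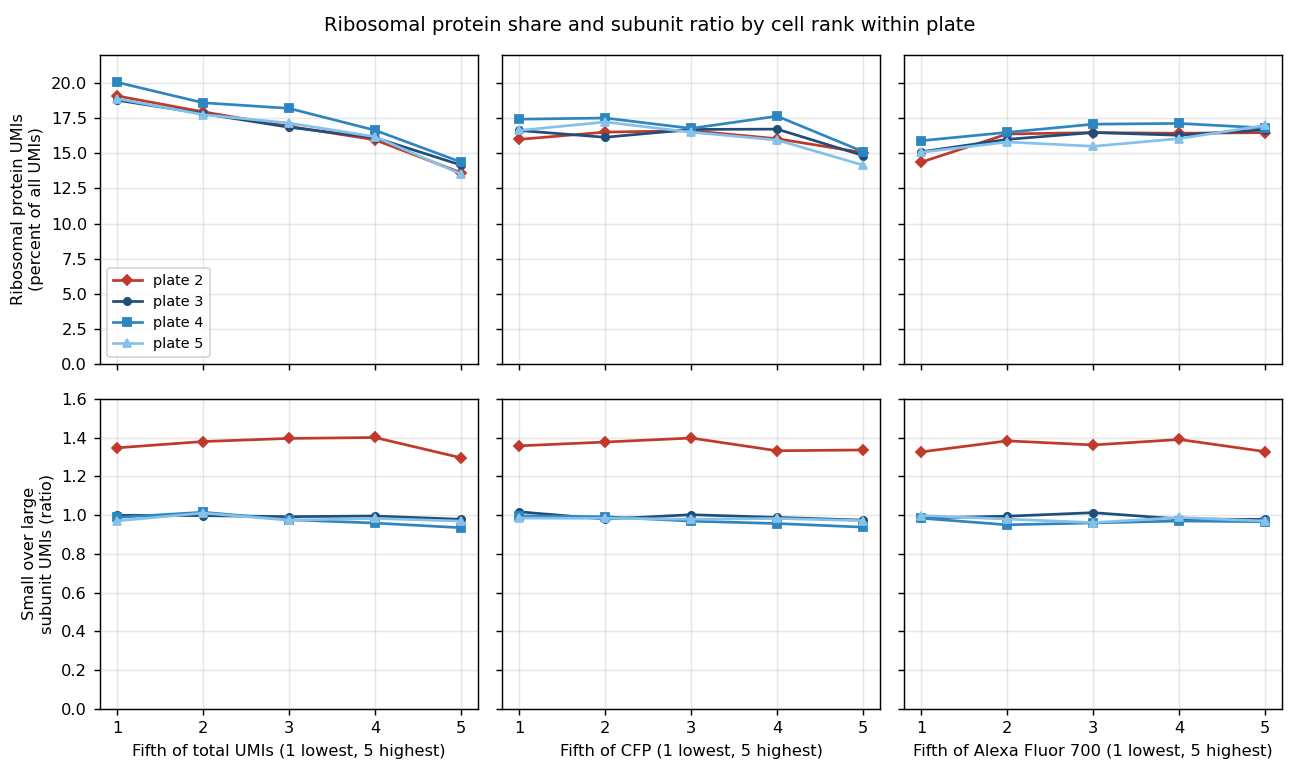
Ribosomal protein share of UMIs (percent, upper row) and ratio of small- to large-subunit UMIs (lower row) in 5 bins of 20% of cells ranked within plate by total UMIs, CFP or Alexa Fluor 700, 1 line per plate. The share falls from 19.2% to 13.9% with total UMIs, drops in the brightest CFP bin and is lowest in the dimmest Alexa Fluor 700 bin, while the ratio separates plate 2 (1.36 overall) from the other plates and moves far less along each rank.

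CFP is the readout of the strain's reporter. In the 20% of cells brightest in CFP, the ribosomal protein share was 15.04%, 14.8%, 15.1% and 14.1% on plates 2 to 5. In the 20% dimmest it was 16.0%, 16.6%, 17.4% and 16.6%. The groups did not overlap, and the difference was -1.88 ± 0.68 points (SD, n = 4 plates), of which the small subunit made -1.08 ± 0.33 and the large -0.80 ± 0.36. The subunit ratio was lower in the bright cells of all 4 plates, by -0.03 ± 0.02, and by -0.07 ± 0.04 without the 8 genes low on plate 2. With cells of at least 1000 UMIs thinned to 1000, the difference in share was -0.58 ± 0.51 points, and on plate 2 the bright cells (15.7%) were above the dim cells (15.6%). The share did not fall in steps: the means over 5 bins were 16.7%, 16.8%, 16.6%, 16.6% and 14.8%, so only the brightest bin stood below the rest.

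Of 62 members tested, 21 fell in the bright cells and none rose (edgeR's quasi-likelihood test), against 3.44% of 4652 entries that fell and 5.61% that rose. Of the 21, 10 were small-subunit and 11 large-subunit genes. The median log2 change was -0.17 over tested members and -0.03 over all entries. Of the 30 members with at least 2000 UMIs, 53.3% fell, against 19.7% of other entries above that minimum, which were less deep as stated. Rps9 had 11385, 8732, 8723 and 8168 in dim cells and 9012, 6682, 6488 and 6070 in bright cells (-0.41 ± 0.04; edgeR adjusted p = 3.00e-21). It was lower in the bright cells of each plate, though plate 2's bright value lay above the dim values of the other plates. Rps14 fell by 0.38 ± 0.04 on the log2 scale and Rplp1 by 0.26 ± 0.03, while the other stalk genes did not pass (Rplp0 -0.10, Rplp2 -0.17).

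The largest changes were again in scarcer genes. Rpl15, a core protein of the large subunit with the pyrimidine run shown above, had 112, 223, 26.2 and 167 in dim cells and 36.8, 46.4, 31.9 and 46.8 in bright cells. It was lower in the bright cells of 3 of 4 plates, on 2 to 19 UMIs per plate and end (-1.71 ± 0.39; edgeR adjusted p = 4.69e-04), and its adjusted p was 0.068 without plate 3. Rps24 (-0.90 ± 0.31), Rpl22 (-0.54 ± 0.15) and Rps10 (-0.48 ± 0.13), another gene of Diamond-Blackfan anaemia, were lower in all 4 plates. Each of these 3 lost its call without 1 or more of the plates: Rps24 without 3, 4 or 5, Rpl22 without 3 or 5 and Rps10 without 3.

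Bright cells also had more UMIs and a larger share of cell cycle mRNA among them. Their member UMIs were 1.70 ± 0.14 times and their other UMIs 1.97 ± 0.26 times those of dim cells, and the G2/M list summed to 4893 to 8593 against 2116 to 2610. HSC markers summed to 1909 to 3101 in bright and 2299 to 5578 in dim cells, and 4 of 10 tested fell (Ifitm1 -0.996, Hlf -0.97, Mecom -1.18, Mllt3 -0.90) and none rose. The part of the HSC markers was not tested. When bright and dim cells were matched on total UMIs within plate, no member fell, 1 rose (Rpl41) and the median was 0.02. After removal of the 20% of cells richest in S phase and G2/M transcripts, Rps14 alone fell and the median was 0.01. No member fell with plate left out of the model, and 6 fell and 2 rose with no filter on low counts.

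The antibody behind the Alexa Fluor 700 channel is not named in the record, so its cells are called high and low. In the 20% highest, members took 16.5%, 16.7%, 16.8% and 16.9% of UMIs on plates 2 to 5, and in the 20% lowest 14.4%, 15.1%, 15.9% and 15.1%. The high cells were above the low cells on each plate with no overlap, by 1.59 ± 0.51 points (SD, n = 4 plates): 0.78 ± 0.34 for the small and 0.81 ± 0.20 for the large subunit. The ratio of the subunits moved by -0.01 ± 0.01.

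Of 58 members tested, 15 rose and 1 fell, by edgeR's quasi-likelihood test, against 2.63% of 3763 entries that rose and 2.26% that fell. The risers were 7 small-subunit and 8 large-subunit genes, and the median log2 change was 0.17 over tested members and 0.00 over all entries. Of the 30 members with at least 2000 UMIs, 50% rose, against 19.7% of the less deep other entries above that minimum. Rplp1 had 12237, 9437, 10283 and 9405 in low cells and 16118, 12048, 12958 and 12314 in high cells (0.42 ± 0.03; edgeR adjusted p = 3.74e-15). It was higher on every plate, with 1 low value, that of plate 2, above 1 high value. Rps14 went from 9184, 6697, 8500 and 8073 to 11586, 9021, 9420 and 9793 (0.35 ± 0.04; edgeR adjusted p = 4.18e-09). It too was higher on every plate, with the low value of plate 2 above the high value of plate 3. Rps9 rose by 0.31 ± 0.04 and Rplp0 by 0.18 ± 0.04, while Rplp2 did not pass (0.10 ± 0.07).

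The largest rise among members that passed was that of Rpl30, whose yeast counterpart binds its own transcript. It had 93.5, 1267, 1479 and 1331 in low cells and 67.3, 1988, 2090 and 1918 in high cells (0.56 ± 0.11; edgeR adjusted p = 5.63e-04). Plates 3, 4 and 5 did not overlap, and plate 2, where this gene was nearly lost, went the other way on 6 and 11 UMIs. Rpl26, known for binding the mRNA of p53, rose by 0.41 ± 0.08 with the same exception, and Rpl23, which binds Mdm2, by 0.31 ± 0.07. Without plate 3 the adjusted p was 0.064 for Rpl26 and 0.066 for Rpl23. Of the 12 members that rose without plate 2, 11 were among the 15, and none rose with plate left out of the model.

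The gene that fell was Rps27l, a copy of Rps27 that p53 is known to induce. It had 400, 422, 579 and 616 in low cells and 280, 330, 347 and 391.7 in high cells. The groups did not overlap, on 25 to 80 UMIs per plate and end. The log2 change was -0.53 ± 0.16 with an edgeR adjusted p of 0.049, and without any 1 of the plates the adjusted p was between 0.058 and 0.21.

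Cells low in this channel had more UMIs and more cell cycle mRNA. The mean over plates of the median UMIs was 1380 in low and 1200 in high cells, the G2/M list summed to 4226 to 6072 against 2048 to 3084, and HSC markers (11 of 11 in the table, Kit, Ly6a and Slamf1 all above 0) to 1573 to 3344 against 1884 to 6143. Megakaryocyte markers summed to 273 to 539 in low and 230 to 336 in high cells, where Itga2b fell (-1.46), and of the erythroid markers Car1 fell (-1.40). With the ends matched on total UMIs, 7 of the 15 still rose, among them Rplp1, Rps14, Rps9, Rps21, Rpl26 and Rpl30. After removal of the 20% of cells richest in S phase and G2/M transcripts, 6 of the 15 rose, among them Rplp1 and Rps14 but not Rpl30, and Rpl41 and Rpl7l1 fell. The part of these markers in the rise was not tested.

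**Figure D3:**
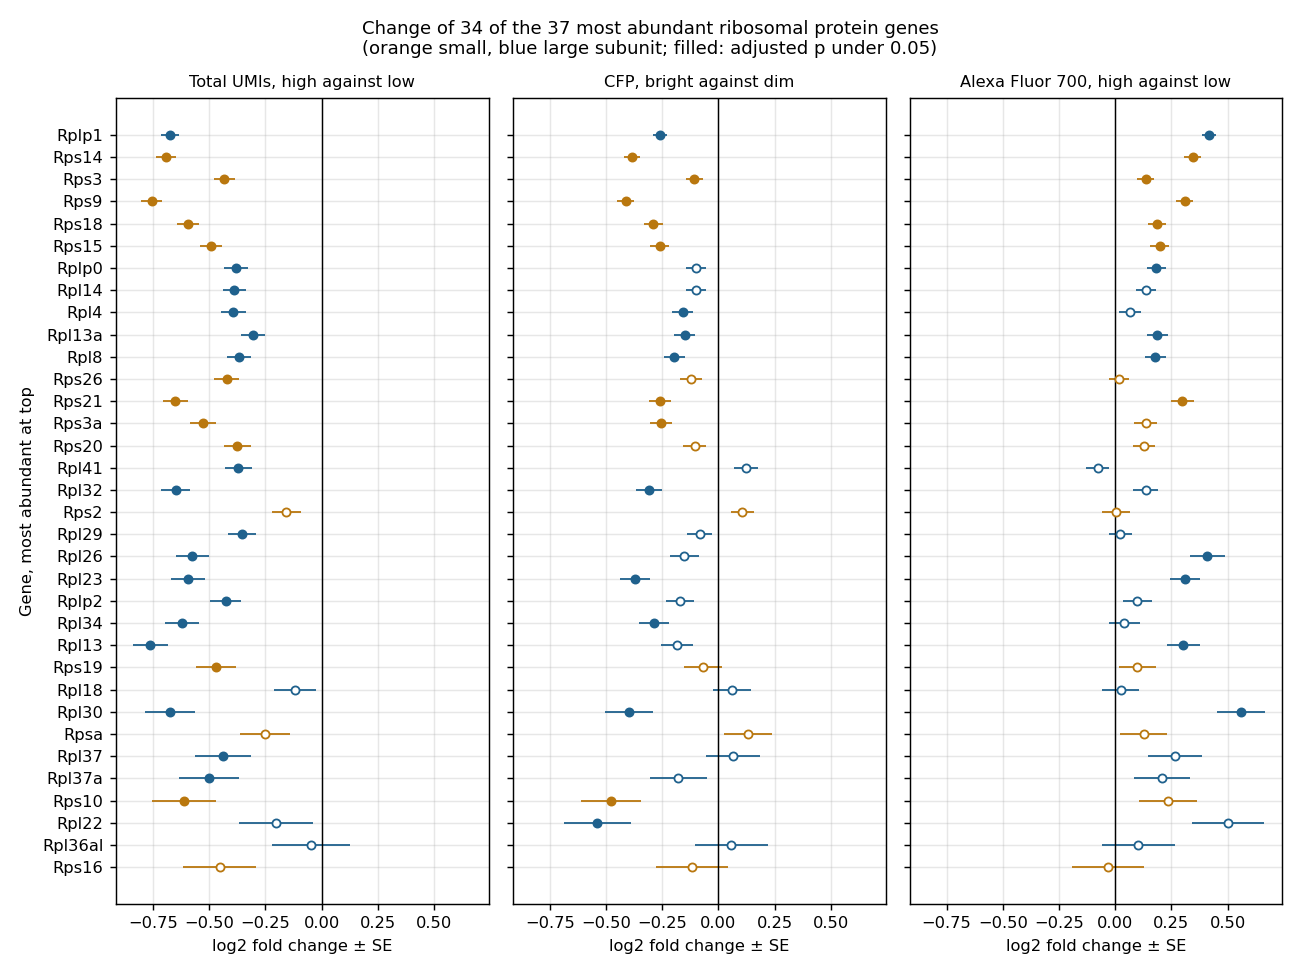
Log2 fold change ± SE (edgeR) of 34 of the 37 most abundant ribosomal protein genes between the 20% of cells at each end of total UMIs, CFP and Alexa Fluor 700. Filled points passed an adjusted p of 0.05; they lie below 0 for total UMIs and CFP and above 0 for Alexa Fluor 700, and orange (small) and blue (large) points are mixed in each panel.

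The same cells entered all 3 comparisons, so these are views of shared cells and not independent. Set side by side for total UMIs, CFP and Alexa Fluor 700, the log2 changes were -0.76, -0.41 and 0.31 for Rps9 and -0.69, -0.38 and 0.35 for Rps14. Rps18 (-0.60, -0.29 and 0.19) and Rps15 (-0.49, -0.26 and 0.20) had the same signs in the same sequence. With ends matched on total UMIs, Rps18 and Rps15 gave 0.0935 and 0.011 for CFP and 0.0687 and 0.073 for Alexa Fluor 700, and none of these passed. Rps9 and Rps14 gave -0.0059 and -0.0666 for CFP with matched ends, which did not pass either, but kept their calls for Alexa Fluor 700. Rps3 moved least of these for CFP and Alexa Fluor 700 (-0.43, -0.11 and 0.14), and its last 2 calls were each lost without 3 of the plates in turn.

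Paralogues of members were mostly too scarce to compare. Rps27, Rpl22l1, Rpl7 and Rpl39l were below 50 UMIs, so in these pairs the members were Rps27l (335 to 451 CPM over plates), Rpl22 (256 to 1032), Rpl7l1 (163 to 349) and Rpl39 (37.3 to 165). Rps27l differed in sign from most members in each comparison, with 0.44 ± 0.19 for total UMIs and 0.22 ± 0.17 for CFP. Neither passed (edgeR adjusted p = 0.16 and 0.49). Rpl22, whose loss blocks T cell development, gave -0.20 ± 0.16 for total UMIs and 0.50 ± 0.16 for Alexa Fluor 700, which did not pass (edgeR adjusted p = 0.62 and 0.053). Rpl36al outnumbered Rpl36a on each plate, at 53.7 to 697 against 6.2 to 74.5. Rpl3, which helps form the peptidyl transferase centre, had 246 to 324 and Rps4x 72.7 to 117.

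Other genes of translation did not move as a block. For total UMIs, factors of elongation and initiation (33 of 39 tested) had 3 that rose and 5 that fell. The largest of the called changes were in Eif4a3 (0.89), part of the exon junction complex, Eif3k (-0.72) and Eif3b (0.59), both of the scaffold eIF3, and Eef1d (-0.42). Eef2, which moves the ribosome along the mRNA, fell by 0.36. Among translation partners (10 of 13 tested) Ybx1 rose (0.78), while Naca, which guides new proteins (-0.58), and Gnb2l1, the small-subunit scaffold RACK1 (-0.37), fell. Of 30 ribosome assembly genes tested, Nolc1 (0.68), Nop58 (0.63) and Ncl (0.45) rose and none fell, and the median was 0.32. The list's summed level went from 5783 to 6183 in low cells to 7682 to 8250 in high cells, without overlap, where the ribosomal proteins' share fell. Mitochondrial ribosomal proteins (60 of 75 tested) had 2 that rose, 1 that fell and a median of -0.002.

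For CFP, Ncl alone of 27 assembly genes rose (0.23) and none fell. The assembly list's summed level was 6116 to 6997 in dim and 7340 to 7590 in bright cells, without overlap. For Alexa Fluor 700, 4 of 26 fell (Rrp9 -1.44, Nhp2 -1.001, Nolc1 -0.68, Ncl -0.33) and none rose. Its summed level was 7227 to 7893 in cells low in that channel and 5625 to 6640 in high cells, again without overlap. Eef1a1 and Eef2, both of which bring about elongation, rose in cells high in that channel by 0.30 and 0.24 and fell in bright cells by 0.37 and 0.24. Eif5a went the other way, by -0.42 and 0.30. Eef1a1 was among the genes nearly lost on plate 2.

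The record also gives each cell a whole number from 1 to 10 whose meaning is not stated. It may come from a clustering of these same UMIs, so the following is a description with no test. Cells numbered 2 (n = 117) had the highest share pooled over plates (19.7%), with 19.3% to 20.4% by plate. Number 3 (169 cells), at 17.6% to 19.4%, overlapped with it, and so did number 6. On plate 5, number 6 was above number 2 (19.6% against 19.3%), on 5 cells. Number 6 (33 cells, 17.0% to 19.6%), number 7 (86 cells, 16.4% to 18.7%) and number 8 (202 cells, 16.8% to 17.7%) overlapped with one another. Number 5 (253 cells) had 16.0% to 17.2%, within reach of numbers 6, 7 and 8, and number 4 (330 cells) had 15.2% to 16.0%, which just met number 5. Numbers 9 (188 cells, 12.5% to 14.2%) and 10 (42 cells, 12.5% to 13.5%) were the lowest and overlapped with each other but with none of numbers 2 to 8. Number 1 had only 10 cells.

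The order followed depth only in part. Median UMIs were 974 in cells numbered 2 and 2341 in those numbered 9. Pooled over plates, number 8 with 1433 and number 10 with 1459 were alike in depth. By plate they were near each other on plates 2 (1251 and 1349) and 5 (1506 and 1404) only. Number 10 was deeper on plates 3 (2182 against 1484.5) and 4 (2991 against 1520), where it had 7 and 9 cells. No plate of number 10 reached the share of any plate of number 8. S and G2/M genes held 2.20% of UMIs in number 10, 1.52% in number 9, 1.09% in number 8 and 0.437% in number 2. Within a number, cells above the median UMIs of their plate had a lower share than those below it in 4 of 4 plates for numbers 3, 4, 5, 8 and 9, with mean differences of -1.56 to -2.08 points. Number 7 gave this in 3 of 3 plates with enough cells (-1.24 ± 1.34 points) and number 2 in 2 of 4 (-0.59 ± 1.55).

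The subunit ratio differed less between numbers than between plate 2 and the rest. It lay between 0.937 and 1.09 for numbers 2 to 10 on plates 3, 4 and 5 and between 1.30 and 1.42 on plate 2. Pooled over plates, number 7 had a ratio of 1.26 where the others had 1.00 to 1.12, and 60.5% of its cells came from plate 2. Within plates it was also the highest of numbers 2 to 10 on each of the 4, at 1.42, 1.09, 0.998 and 1.05 on plates 2 to 5, with 0.998 for number 3 next to it on plate 4. These rest on 52, 11, 7 and 16 cells. Without the 8 genes low on plate 2, its ratio was 1.464, 1.61, 1.48 and 1.59 on plates 2 to 5. It was then the highest on plates 3 and 5 only, with number 5 at 1.465 on plate 2 and number 2 at 1.53 on plate 4. Number 9 had the lowest ratio on plates 2 (1.30) and 4 (0.937), and number 2 on plates 3 (0.964) and 5 (0.949).

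**Figure D4:**
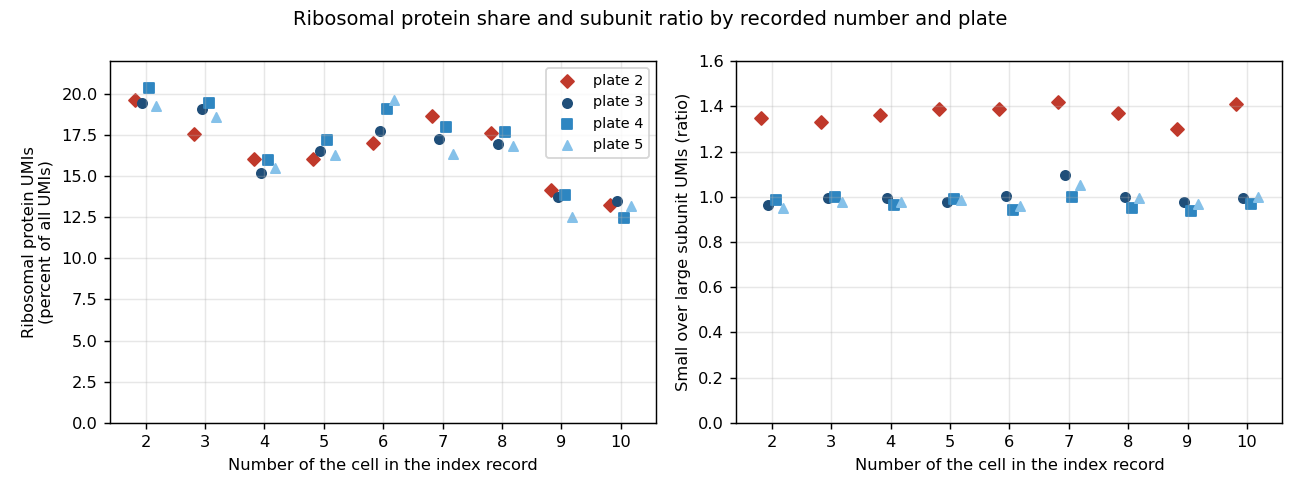
Ribosomal protein share of UMIs (percent, left) and ratio of small- to large-subunit UMIs (right) for cells of each recorded number, 1 point per plate with at least 5 cells of that number. Shares are highest for number 2 (19.3% to 20.4%), except on plate 5, where number 6 is above it (19.6%), and lowest for numbers 9 and 10. The ratio separates plate 2 (1.30 to 1.42) from the other plates at every number.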

How the data were processed

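The authors deposited a table of UMI counts per gene entry and well, not normalized, from index-sorted single HSCs, and a record of the sort. The deposited record gives CFP and Alexa Fluor 700 on a log10 scale, whose antilogs are whole numbers, and only ranks within plate were used. The submitters' processing notes name cutadapt, STAR and featureCounts and the builds mm9 and mm10, without roles; the sources used here do not say how reads became UMI counts. Bulk RNA-seq and bisulphite samples were not analysed here. All 1430 recorded wells held at least 500 UMIs and were kept; 106 wells without a record were left out. No doublet caller was run, since plates were sorted 1 cell per well.

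UMIs were summed per plate and part of the rank (lowest 20%, middle, highest 20%) and fitted with edgeR 4.0.16 in R 4.3.3: quasi-likelihood test, plate as a block, low-count filter, TMM factors and Benjamini-Hochberg adjustment over all entries tested at 0.05. The design assumed the labels' batches as replicates; the record names plates, which stood in for them. Plate was kept as a block because cells were ranked within plate, so the parts share its conditions. The spread used for a gene was largely an estimate shared over genes. A gene's own values gave 6 degrees of freedom. The shared estimate gave 226 for total UMIs, 276 for CFP and 40.8 for Alexa Fluor 700. The fit was also run on simulated counts with the same spread for all genes and no differences between plates. That run therefore says nothing of differences like those of plate 2. Shares are means ± SD over the 4 plates, with no test. Genes named are the 8 most abundant members, the 6 largest called changes of each comparison, called members against the main direction, stalk genes, paralogues and members called in opposite directions in different comparisons; others are said to be chosen after their values were seen or describe plate 2. Some genes that this rule names are not reported here, but all members stand in the counts and shares. Members and lists were chosen with earlier results of these data known. Alternatives changed the scaling, the filter, the tool (DESeq2 1.42.0), the block, the size of the ends, the depth of cells, the plates and the cells; 1 (cells numbered 4 alone) was added after seeing the data. UMIs cover counting of captured molecules only, and precision is limited by depth for members with few UMIs.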

Additional observations from a re-analysis of the deposited data

Results flagged for a closer look

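Plate values of 43 quantities (subunit shares, differences in share and levels of named genes) were examined for 1 plate far from the other 3, by the gap to the nearest plate over the whole range, against Dixon's 95% critical value for 4 values. Chance passes about 1 in 20 such sets, and 8 passed. The 43 took in the 8 genes picked because they were low on plate 2. The rate of 1 in 20 does not hold for those genes, or for the subunit ratio they enter. The number that passed can therefore not be set against it. Plate 2 was the far plate for the ratio of small- to large-subunit UMIs (0.938), for Rpl4 (0.980), Rpl32 (0.923), Rpl26 (0.914), Rpl34 (0.892) and Rpl37a (0.866), where it was low, and for Rps3 (0.858), where it was high at 10218 UMIs per 1000000. Rpl39 (0.838) was far on plate 3, at 165. No cause was tested.

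The 106 wells with no sort record, left out of the comparisons, held 25068 UMIs, of which 4258 (17.0%) were of ribosomal protein genes.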

How the results depend on the processing

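For total UMIs, 28 to 37 members fell under each setting listed here but 2: without the replicate block for plate 8 fell, and in cells numbered 4 alone 4 fell (median log2 change -0.11). The median was -0.46 with RLE factors, -0.32 with no low-count filter, -0.45 with DESeq2, -0.49 with 10% of cells at each end, -0.35 without cycling cells (the 20% richest in S phase and G2/M transcripts), -0.38 with thinned cells and -0.47 with cells ranked by UMIs outside the members. The difference in share was -4.00 points with thinned cells and -4.70 without entries of several names. Rpl22 turned to 0.17 without cycling cells and, in cells numbered 4, Rpl22, Rpl18 and Rps2 gave 0.98, 0.13 and 0.0436. For CFP, 0 fell without the replicate block, 0 with ends matched on UMIs (median 0.0226, 1 rose) and 0 in cells numbered 4 (median 0.0243). Without cycling cells 1 fell (median 0.0128), with no filter 6 fell and 2 rose (median -0.0325), with 30% ends 13 fell and 1 rose, and with cells of at least 1000 UMIs 1 rose. With 10% ends the median was -0.27, and with thinned cells the share differed by -0.575 points. Signs turned with matched ends for Rps3 (0.15), Rplp0 (0.12), Rps18 (0.0935), Rplp1 (0.0857) and Rps15 (0.011), and without cycling cells for Rplp0 (0.0688), Rps3 (0.0602), Rps18 (0.0174) and Rplp1 (0.0081). They also turned with no filter for Rplp0 (0.0383) and Rps3 (0.0309), and in cells numbered 4 for Rps18 (0.11), Rplp0 (0.10), Rps3 (0.0484), Rpl22 (0.0326), Rps9 (0.023) and Rps27l (-0.46). For Alexa Fluor 700, 0 rose without the replicate block, 7 with matched ends (median 0.0637), 6 without cycling cells (2 fell, median 0.0693) and 2 in cells numbered 4 (median 0.0385), where Rps3 turned to -0.0636. The number that fell was 0 with sizes from genes outside the members, no filter, DESeq2, no replicate block, single-name entries, matched ends, cells of at least 1000 UMIs or cells numbered 4. Leaving out 1 plate at a time, 11 to 17 rose, 0 fell and the median was 0.15 to 0.21, while 16 to 21 fell for CFP and 31 to 34 for total UMIs. The cause of these changes was not tested.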
